A study of Rattus norvegicus with 6 samples.

Results

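Nuclei that carried transcripts of mural cells, the pericytes and vascular smooth muscle cells that wrap small vessels, were examined in rat brain 48 h after middle cerebral artery occlusion (MCAO). Nuclei were chosen by their own transcripts. A nucleus was taken when it had at least 500 unique molecular identifiers (UMIs), 250 to 5000 detected genes and at most 5% mitochondrial UMIs, and when Rgs5, Vtn, Pdgfrb and Abcc9 together gave at least 3 UMIs and at least 0.3% of its UMIs. It was left out with more than 3 UMIs of the neuronal genes Snap25, Syt1 and Rbfox3, with more than 1 UMI of Pecam1, or with more than 2 UMIs of the fibroblast genes Col1a1, Col3a1, Dcn and Lum. The endothelial limit also names Flt1 and Cldn5, which were not matched by symbol, so that Pecam1 alone carried it. This left 152 of 73649 nuclei within the depth limits, and 73826 barcodes were in the files. These 152 are called mural-marked nuclei here, because the measurements below went partly against calling all of them pericytes.

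The study sequenced nuclei of coronal brain tissue around the infarct in 6 libraries made with a droplet 5' kit. All 11 rats were male wild-type Wistar rats aged 12 weeks. Sham L and Sham R were the left and right hemispheres of the same 4 sham-operated rats, and they formed the Sham group. The rats with a permanent right-sided occlusion were divided by infarct extent into a moderate pool (mMCAO, 3 rats) and a severe pool (sMCAO, 4 rats). The hemispheres opposite the lesion (mMCAO contra and sMCAO contra) formed MCAO contra, and the lesioned hemispheres (mMCAO ipsi and sMCAO ipsi) formed MCAO ipsi. Each library held tissue pooled from several rats, so that the spread within a group was a spread between pools or hemispheres and not between animals. In MCAO contra and MCAO ipsi, that spread also held the difference between moderate and severe infarcts.

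The Sham hemispheres gave 19 (Sham L) and 14 (Sham R) mural-marked nuclei, the contralateral ones 22 (mMCAO) and 15 (sMCAO), and the ipsilateral ones 42 (mMCAO) and 40 (sMCAO). Values of the 6 libraries are listed in this order throughout. They were shallow, with a median of 1068.5 UMIs and a range of 507 to 5465. Summed over the nuclei of each library, they held 20897, 11649, 34812, 17937, 51959 and 49671 UMIs. Sham R was thus the shallowest sum and the ipsi libraries the deepest. No barcode of a mural-marked nucleus was used by another in a different library, although pairs of libraries shared 118 to 281 barcodes over all nuclei. Since 3 libraries had under 20 such nuclei, UMIs were pooled by group, into 33 nuclei for Sham, 37 for MCAO contra and 82 for MCAO ipsi, and values of the single libraries are given beside the pooled ones. Levels are given as UMIs of a gene per 1000000 UMIs of the same nuclei (CPM), with intervals that cover counting error only. UMIs are not corrected for gene length, so levels were compared between libraries and not between genes.

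Mural cells sit in the vascular basement membrane, on the outer side of the endothelial tube. Pericytes cover brain capillaries and depend on PDGF-B from endothelial cells, which acts on the receptor Pdgfrb, and on Notch3, the main Notch receptor of mural cells. Abcc9 and Kcnj8 together form their ATP-sensitive potassium channel, and Rgs5 is a brake on signalling by G-protein-coupled receptors. After ischemia, pericytes are known to constrict capillaries, to die or detach, and to take part in building matrix.

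Promoter sequence of 3 mural genes is shown because their transcripts moved differently between the libraries described next. The 100 bases before the start are given 5' to 3' on the strand of the gene from RefSeq on assembly GRCr8, which is a later build than the one used for the counts. Capitals mark the GC box GGGCGG or its reverse complement CCGCCC. The windows are chr13:84380977-84381076 on the plus strand for Rgs5, chr4:177386349-177386448 on the minus strand for Abcc9 and chr7:11834586-11834685 on the minus strand for Notch3.
Rgs5: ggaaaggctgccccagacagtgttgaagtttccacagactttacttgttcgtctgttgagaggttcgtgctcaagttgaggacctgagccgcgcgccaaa
Abcc9: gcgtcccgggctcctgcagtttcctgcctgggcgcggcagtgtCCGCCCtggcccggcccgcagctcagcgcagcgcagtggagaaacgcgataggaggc
Notch3: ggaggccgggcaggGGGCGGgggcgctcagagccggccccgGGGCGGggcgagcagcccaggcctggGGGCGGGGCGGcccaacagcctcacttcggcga
The window of Notch3 held 4 matches, 2 of them overlapping, and was 83% G and C, that of Abcc9 held 1 match at 73%, and that of Rgs5 held 0 at 53%. Over 250 upstream bases Rgs5 held the motif as well, as did 30.5% of 33469 RefSeq promoters. A match describes the letters only.

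The 4 marker genes of the rule did not move together between libraries. Their values chose the nuclei, so they are given as levels without a test, and since the rule set a limit on their sum, a nucleus with little of one had to carry more of another. Rgs5 stood at 2680 and 3777 CPM in the Sham libraries, at 2241 and 2899 opposite the lesion and at 3407 in mMCAO ipsi, but at 986 in sMCAO ipsi. Abcc9 stood at 1531, 1030.1, 804, 1227, 1674 and 3423 CPM in the 6 libraries. Pdgfrb stood at 335, 429, 488, 390.3, 539 and 1288 CPM. The severe ipsilateral library was therefore lowest for Rgs5 and highest for Abcc9 and Pdgfrb, while mMCAO ipsi lay within the range of the 4 other libraries for Rgs5 and just above it for Abcc9 and Pdgfrb. Vtn, which codes for the matrix and plasma protein vitronectin, gave few UMIs (13, 4, 30, 11, 22 and 15). By nuclei, all 33 Sham members had an Rgs5 UMI, as did 38 of 42 in the moderate and 18 of 40 in the severe ipsilateral library, while 23 of 33, 33 of 42 and 38 of 40 had an Abcc9 UMI. Of the 152 nuclei, 24 had exactly 3 marker UMIs, the lowest number allowed, and 23 nuclei that met the share of 0.3% were left out with 2.

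**Figure D1:**
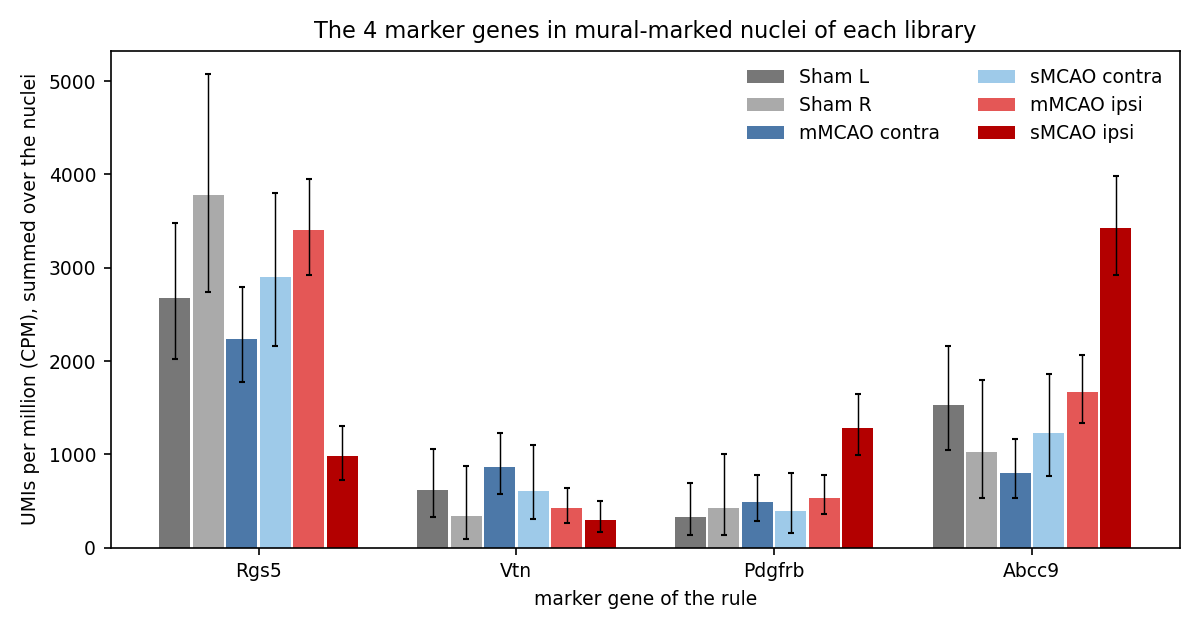
Summed CPM of the 4 marker genes (bars) in the mural-marked nuclei of each of the 6 libraries, with exact Poisson 95% intervals. Rgs5 is lowest in sMCAO ipsi (986 CPM), where Abcc9 (3423 CPM) and Pdgfrb (1288 CPM) are highest.

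The label of a mural cell held only in part. Of 17 further mural genes that were matched, those with most UMIs were Ebf1, a transcription factor of mural cells, and Atp13a5, a marker of brain pericytes. Atp13a5 stood at 1172 CPM in the members, 3.97 CPM in all other nuclei and 80.1 CPM in nuclei marked as endothelial. Ebf1 did not separate the classes in this way, at 2434 CPM in the members and 2324 CPM in nuclei marked as endothelial. With each nucleus thinned to 500 UMIs, 91.4% of the members had a UMI of the 17 genes. The share was 67.8% in nuclei marked as endothelial, so the list is not particular to mural cells. Summed, the further mural genes gave 5223 CPM in Sham, 4929 in MCAO contra and 7449 in MCAO ipsi. Yet 13 endothelial genes outside the rule, among them Adgrl4, Tek, Ptprb, Egfl7 and Abcg2, gave 8603 CPM in Sham, 8531 in MCAO contra and 5687 in MCAO ipsi. The endothelial list thus gave more UMIs than the further mural list in Sham and MCAO contra, with no correction for gene length. Many of the genes that stood furthest above other nuclei are endothelial or of the blood, such as the haemoglobin gene Hba-a2, Adgrl4, Slco1a4, Slco1c1 and Klf2. Hba-a2 differed between the hemispheres of the same sham rats, with 0 UMIs in Sham L, where 3 UMIs would be 144 CPM, and 6610.0 CPM in Sham R. Whether such a barcode held a mural nucleus with endothelial RNA, an endothelial nucleus with mural RNA, or both nuclei cannot be told apart, and no doublet caller was run.

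The share of members almost free of endothelial transcripts separated the severe ipsilateral library from the rest. Members with 0 or 1 UMI of the 13 endothelial genes numbered 1 of 19 and 2 of 14 in the Sham libraries. Opposite the lesion they numbered 2 of 22 (mMCAO) and 0 of 15 (sMCAO), where 3 nuclei would be 20% (Clopper-Pearson 95% limit 21.8%). On the lesion side they numbered 10 of 42 with moderate infarcts (23.8%, Clopper-Pearson 95% interval 12.1 to 39.5) and 30 of 40 with severe ones (75%, 58.8 to 87.3). In all, 45 nuclei fell into this kind and 107 had 2 or more endothelial UMIs. Few lay near the boundary, with 5 nuclei at 1 UMI and 2 nuclei at 2. After each nucleus was thinned to 500 UMIs, an endothelial UMI was left in 90.9% of the members in Sham, 91.9% in MCAO contra, 76.2% with moderate and 27.5% with severe infarcts on the lesion side, against 93.9%, 94.6%, 76.2% and 35% before thinning. In nuclei marked as neurons and thinned in the same way, which should lack these genes, the share was 0.9 to 1.9% by library. The 45 nuclei were shallower and held less mitochondrial RNA, with medians of 767 UMIs and 0.176% mitochondrial UMIs, against 1226 UMIs and 1.22% in the 107. The part that depth and mitochondrial RNA had in the difference was not tested.

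**Figure D2:**
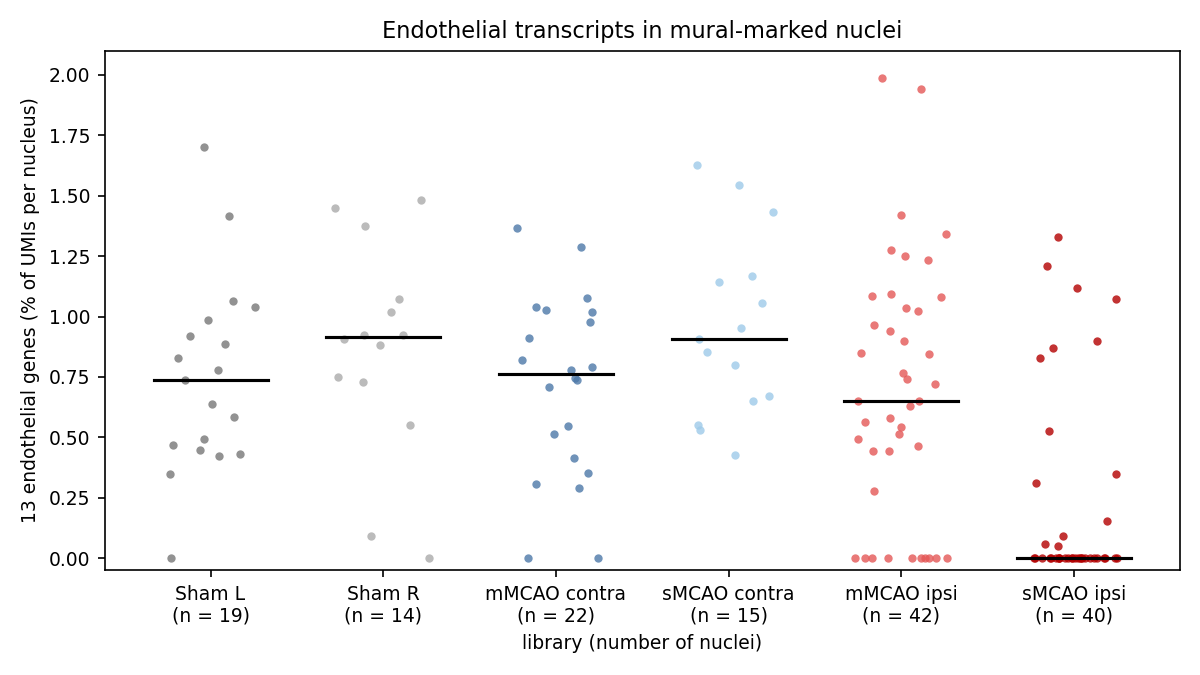
Share of the UMIs of each mural-marked nucleus (points) that fell on 13 endothelial genes, by library, with the median of each library (black line). In sMCAO ipsi the median is 0, and 30 of 40 nuclei have 0 or 1 endothelial UMI.

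Within MCAO ipsi, where both kinds of nuclei were frequent, members with few endothelial UMIs had higher levels of Notch3, Ebf1 and several vessel tone genes and lower levels of Sparc and Cxcl12. Of the 40 such nuclei 30 were from sMCAO ipsi, and of the 42 others 32 were from mMCAO ipsi, so values are given within each library where UMIs allowed. Notch3 was at 1113 CPM in members with 0 or 1 endothelial UMI and 333 in those with 2 or more in mMCAO ipsi, and at 1268 against 438 in sMCAO ipsi. Ebf1 was at 2631 against 1759 CPM with moderate and 4735 against 1838 with severe infarcts. Cacna1c, the pore subunit of the L-type calcium channel, was at 1720.3 against 570.4 and at 4511 against 1357 CPM. The phosphodiesterase Pde3a was at 1316 against 380.3 and at 3914 against 1357 CPM. These 4 genes thus stood in the same order in both libraries. Over both libraries, Ednra, the endothelin receptor A, was at 899 against 154 CPM, Mcam at 845 against 277 and Tbx18, a transcription factor of mural cells, at 272 against 46.2. Other transcripts stood the opposite way. Sparc, a collagen-binding matrix protein, was at 304 against 4706 CPM in mMCAO ipsi and at 447 against 4071 in sMCAO ipsi. Cox4i2, a subunit of cytochrome oxidase found in pericytes, and Cxcl12, a chemokine of the vessel wall, were at 0 UMIs in the 40 ipsilateral members with few endothelial UMIs, where 3 UMIs would be 81.7 CPM, but at 354 and 2603 CPM in the 42 others. Of the basement membrane genes, Col4a1 was lower in members with few endothelial UMIs, at 810 against 1450 CPM in mMCAO ipsi and 2088 against 4158 in sMCAO ipsi. Col4a2 was at 506 against 808 and at 1528 against 2057 CPM, and Nid1 at 405 against 380.3 and at 522 against 700.3. The markers of the rule chose the nuclei, and over both libraries Rgs5 was at 763 against 3050 CPM, Pdgfrb at 1798 against 400.5 and Abcc9 at 3869 against 1771. The split itself used endothelial genes, and these levels describe nuclei of 2 libraries without a test.

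Mural-marked nuclei made up a larger share of all nuclei in both ipsilateral libraries. The shares were 0.145% and 0.103% in the Sham hemispheres and 0.152% and 0.139% opposite the lesion, against 0.324% (exact interval 0.234 to 0.438) with moderate and 0.462% (0.330 to 0.628) with severe infarcts on the lesion side. Both ipsilateral values lay above the other 4, and the mean share was 3.18 times that of Sham. The SD of this ratio was 1.09, propagated from the SDs within each group (n = 2 libraries per group). With 2 libraries against 2, an exact permutation test cannot go below p = 0.33, so none was made. Nuclei with at most 3 UMIs of the neuronal genes numbered 2305 of 13125, 1775 of 13626, 3535 of 14491, 2487 of 10794, 3918 of 12948 and 5393 of 8665 in the 6 libraries, and so made up more of both ipsilateral ones. Among these nuclei the ratio was 1.12, with shares of 0.824%, 0.789%, 0.622%, 0.603%, 1.07% and 0.742% in the same order. On this denominator sMCAO ipsi lay below both Sham libraries. Against MCAO contra the ratios were 2.70 of all nuclei and 1.48 of those with few neuronal UMIs. Fewer nuclei of 1 type and more of another cannot be told apart from such shares.

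The comparison of MCAO ipsi with Sham asked which transcripts of mural-marked nuclei differed 48 h after infarction. By a rule on pooled counts, 6 of 11 basement membrane genes and 5 of 13 vessel tone genes were called higher in the lesioned hemispheres. Nid1 of the former and Ednra, Ednrb and Kcnj8 of the latter had at most 2 UMIs in Sham and could only be called higher. Without sMCAO ipsi no vessel tone call was left. Outside the selection rule, 4 of 5 neuronal and 4 of 12 endothelial genes were called lower. Among members with 2 or more endothelial UMIs, 4 of 5 neuronal and 0 of 12 endothelial genes were called lower, beside 8.62% of all genes. In the same members, 4 of 8 basement membrane and 0 of 7 vessel tone genes were called higher, beside 6.65%. With all members and libraries, tests by edgeR, with its filter on low counts, and by DESeq2, given further on, called 0 genes. Among members with 2 or more endothelial UMIs, edgeR called 32 of 414 genes (7.73%). A gene was called when its summed CPM differed by at least 0.6 on the log2 scale, the 2 libraries of a group did not overlap with those of the other, and the exact Poisson 95% interval of the ratio excluded 1. This is a rule on counts with 2 libraries per group and not a test over replicates. It was applied to genes with at least 20 UMIs over both groups, and since MCAO ipsi had the deeper sum, a low gene could pass mainly through its ipsilateral UMIs. Of 1654 genes compared, 86 were called higher (5.2%) and 142 lower (8.59%), with a median log2 ratio of 0.04. With size factors from the median of ratios the split was 126 higher and 106 lower. Without sMCAO ipsi the calls numbered 112 and without Sham L 120.

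Col4a1, which codes for a chain of collagen IV, the main collagen of the vascular basement membrane, was called against Sham by the pooled rule under each alternative of that rule. It was not called against Sham by edgeR on the sums of each library (adjusted p = 0.126) or by DESeq2. It stood at 479 and 858 CPM in the Sham libraries, 517 and 558 opposite the lesion, and 1328 and 3040.0 on the lesion side. Both ipsilateral libraries were above all 4 others, and the pooled ratio to Sham was 3.52 (2.23 to 5.88), with a log2 ratio of 1.82 that went to 1.11 without sMCAO ipsi. The UMIs were spread over nuclei, with 55 of 82 ipsilateral members carrying at least 1 and no nucleus more than 24. Among members with 2 or more endothelial UMIs the ratio was 3.80 (2.36 to 6.49). Its partner Col4a2 stood at 574, 85.8, 632, 223, 751 and 1772 CPM, with a ratio of 3.13 (1.77 to 6.04), and its call was lost without sMCAO ipsi, where the log2 ratio went from 1.65 to 0.91, against 3.86 without Sham L. Both genes start head to head on chromosome 16, and the bases between their starts, at chr16:84885521-84885596 of GRCr8, are shown on the plus strand with the GC box in capitals because this stretch lies upstream of both.
between Col4a1 and Col4a2: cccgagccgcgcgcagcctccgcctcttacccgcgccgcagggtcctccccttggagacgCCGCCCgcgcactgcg
These 76 bases were 78.9% G and C. Of 12 basement membrane genes with a RefSeq promoter, 9 held the GC box in 250 upstream bases, beside 9 of 14 further mural genes, 5 of 9 endothelial genes and 30.5% of all RefSeq promoters.

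Of 11 basement membrane genes compared, 6 were called higher and 0 lower, beside 5.2% and 8.59% of all genes, and all 11 ratios were above 1, with a median log2 ratio of 1.01 beside 0.04 over all genes. Nid1, the linker nidogen, had 1, 1, 8, 5, 20 and 30 UMIs in the 6 libraries, a log2 ratio of 3.00 with a wide interval of the ratio (2.1 to 67.9), and with 2 UMIs in Sham it passed the limit of 20 UMIs through MCAO ipsi and could only be called higher. Sparc stood at 1771, 1717, 3074, 3178, 3868 and 2114 CPM, so that the contralateral libraries were also above Sham, and its log2 ratio of 0.78 fell to 0.27 without mMCAO ipsi. The laminin chains Lama2 and Lama4 had log2 ratios of 1.01 and 0.99, and the call of each was lost without sMCAO ipsi (0.65 and 0.55) and without Sham R (0.53 and 0.94). Without Sham L the log2 ratio of Lama2 was 2.85, and Lama4 lost its call there (1.09). Nid1 lost its call without Sham L, at a log2 ratio of 2.52, where only 1 UMI was left in the reference. Among members with 2 or more endothelial UMIs, 4 of 8 genes compared were called higher, namely Col4a1, Col4a2, Nid1 and Sparc, beside 71 called higher (6.65%) and 92 lower (8.62%) of all 1067 genes.

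Of 13 genes of contraction and vessel tone, 5 were called higher and 0 lower (median log2 ratio 1.06), beside 5.2% and 8.59% of all genes. Of the 5, Ednra, Ednrb and Kcnj8 had at most 2 UMIs in Sham, so that they passed the limit of 20 UMIs through MCAO ipsi and could only be called higher. Cacna1c stood at 431, 601, 689, 502, 789 and 3060.1 CPM, and its pooled ratio to Sham of 3.86 (2.32 to 6.89) rested on sMCAO ipsi, without which the log2 ratio went from 1.95 to 0.68 and the call was lost. Pde5a, the cyclic GMP phosphodiesterase, stood at 335, 85.8, 373, 335, 423 and 1087 CPM, with a log2 ratio of 1.61, or 0.78 and not called without sMCAO ipsi, and 3.12 without Sham L. Ednra had 1, 0, 7, 0, 7 and 36 UMIs (log2 ratio 3.78, or 2.13 and not called without sMCAO ipsi, and 0.72 against the floor without Sham L). Kcnj8 had 0, 2, 2, 4, 9 and 24 UMIs (log2 ratio 2.40), and its call was lost without sMCAO ipsi (1.5) and without Sham L (0.92). Without Sham R its log2 value was 1.18 against the floor. Ednrb, the endothelin receptor B, had 0 UMIs in Sham and 1 in MCAO contra, against 3 with moderate and 21 with severe infarcts on the lesion side, so that it was at least 2.56-fold higher than Sham against a floor of 3 UMIs over the group. Its call was lost without Sham L, where the log2 value against the floor was -0.13, beside 0.72 without Sham R. Without sMCAO ipsi Ednrb had too few UMIs to be compared. In members with 2 or more endothelial UMIs, 0 of 7 such genes were called, beside 6.65% of all genes called higher, with a median log2 ratio of 0.85, and nuclei with few endothelial UMIs were 40 of 82 in MCAO ipsi and 3 of 33 in Sham. The part of this mix in the difference was not tested further.

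Genes of the interstitial matrix and its remodelling were called higher 4 times and lower 1 time among 11 compared (median log2 ratio 0.94), beside 5.2% and 8.59% of all genes. Of the 4, Adamts1, Adamts4 and Postn had at most 2 UMIs in Sham, passed the limit of 20 UMIs through MCAO ipsi and could only be called higher. The protease Adamts9 stood at 335, 258, 402, 613, 616 and 1631 CPM, with a ratio of 3.62 (1.90 to 7.75), and the log2 ratio went from 1.86 to 1.0 without sMCAO ipsi, where the call was lost. Adamts1 had 1, 1, 3, 1, 7 and 23 UMIs in the 6 libraries, and Adamts4 had 2 with moderate and 22 with severe infarcts on the lesion side and 0 elsewhere. Both calls were lost without Sham L, with log2 values of 1.78 and, against the floor, -0.13. That of Adamts1 was also lost without sMCAO ipsi (1.13), where Adamts4 had too few UMIs to be compared. Without Sham R, Adamts4 was at 0.72 against the floor. Postn, which codes for periostin, a matrix protein of wound healing, had 0 UMIs in Sham and 1 opposite the lesion, against 2 with moderate and 63 with severe infarcts on the lesion side, spread over 18 ipsilateral nuclei. It was at least 6.94-fold higher than Sham (log2 bound 2.79, or 1.31 without Sham L and 2.16 without Sham R), and without sMCAO ipsi it had too few UMIs to be compared. Timp3, an inhibitor of matrix proteases, was lower, at 526, 601, 316, 558, 308 and 161 CPM (log2 ratio -1.23), but was not called without sMCAO ipsi (-0.84), Sham L (-1.35) or Sham R (-1.16). Over all members Fn1, Ccn2 and other matrix genes were not called. Among members with 2 or more endothelial UMIs, 4 of 9 genes compared were called higher, namely Adamts1, Adamts9, Ccn2 and Postn, and 0 lower, beside 6.65% and 8.62% of all genes.

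Among receptors and signals, Notch3 was called higher and Tek, the endothelial angiopoietin receptor, lower, of 9 genes compared, which is near the 5.2% and 8.59% of all genes. Notch3 stood at 191, 0, 172, 279, 481 and 886 CPM, with both ipsilateral libraries above the other 4. Its ratio to Sham was 5.52 (2.06 to 20.9), and its log2 ratio went from 2.47 to 1.40 without Sham L and 1.83 without Sham R. With 4 UMIs in Sham L and 0 in Sham R, Notch3 passed the UMI limit of the pooled rule through MCAO ipsi. It could therefore only be called higher. It was still higher but not called among members with 2 or more endothelial UMIs (2.78, 0.95 to 11). Tek stood at 814, 515, 747, 613, 481 and 262 CPM, and its log2 ratio of -0.92 became -0.39 in those members, -0.55 without sMCAO ipsi and -0.46 without Sham L, with no call. Vim, the filament protein vimentin, stood at 191, 515, 517, 502, 654 and 564 CPM (log2 ratio 0.99, or 0.88 and 0.24 with no call without mMCAO ipsi and Sham L). Of 7 genes of inflammation, among them Nfkbia and Osmr, 0 were called, a count near that background, and of 3 of hypoxia and glycolysis, 2 were lower. The latter were the glucose transporter Slc2a1 of the blood-brain barrier, at 1148, 1374, 948, 1561, 770 and 463 CPM, and Ndrg1. Slc2a1 was not called among members with 2 or more endothelial UMIs (log2 ratio -0.41), and 63 of its UMIs in MCAO ipsi were divided into 3 in nuclei with few endothelial UMIs and 60 in the others.

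The genes that stood out outside these lists were mainly in the severe library. Of these, Igfbp3, Cyp7b1 and Bmp1 had at most 1 UMI in Sham. They passed the UMI limit of the pooled rule through MCAO ipsi and could only be called higher. Igfbp3, a secreted binder of insulin-like growth factors, had 0 UMIs in Sham and MCAO contra, against 7 with moderate and 55 with severe infarcts on the lesion side, but only 11 nuclei carried it and a single nucleus gave 30. Its bound of at least 6.62-fold (log2 2.73) was not called without sMCAO ipsi (log2 value 0.55) and went to 1.24 without Sham L and 2.09 without Sham R. Cyp7b1, an oxysterol hydroxylase, had 0, 1, 2, 1, 5 and 37 UMIs in 21 ipsilateral nuclei (log2 ratio 3.75, or 1.65 without sMCAO ipsi and 2.27 without Sham L, neither called, and 1.53 without Sham R). Bmp1, a protease that processes procollagen, had 0 UMIs in Sham and 42 in 26 ipsilateral nuclei, and was at least 4.48-fold higher (log2 bound 2.16, or 0.91 and not called without sMCAO ipsi, 0.68 without Sham L and 1.53 without Sham R). The mitochondrial transcript Mt-co2 stood at 909, 1030.1, 2183, 2620.3, 2079 and 3221 CPM, higher than Sham in all 4 MCAO libraries.

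Of the neuronal genes outside the rule, 5 could be compared, and Csmd1, Kcnip4, Nrg3 and Rbfox1 were called lower, beside 8.59% of all genes. Kcnip4, a subunit of neuronal potassium channels, stood at 2728, 1717, 517, 892, 828 and 282 CPM, and Nrg3, a neuregulin, at 1818, 773, 373, 613, 443 and 81 CPM. Csmd1 and Rbfox1, and outside the list Dpp10, Cadm2 and Fgf14, were called lower as well, with log2 ratios from -2.52 for Fgf14 to -1.82 for Csmd1. Without sMCAO ipsi the log2 ratios were -1.72 for Fgf14, -1.71 for Nrg3, -1.34 for Dpp10, -1.20 for Cadm2 and -1.14 for Csmd1, and without mMCAO ipsi they were -4.74, -4.16, -4.05, -4.42 and -3.28. Without Sham L those of Fgf14, Nrg3 and Cadm2 were -1.68, -1.54 and -1.40. The 8 neuronal genes outside the rule summed to 7251 CPM in Sham and 3147 opposite the lesion, against 2752 with moderate and 825 with severe infarcts on its side, led by Kcnip4 in Sham and on the lesion side and by Rbfox1 opposite the lesion. Nuclei marked as endothelial moved the same way, with log2 ratios of -3.59 for Kcnip4 and -2.77 for Nrg3. Free RNA of other cells reaches all droplets, and its part in these differences was not tested.

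**Figure D3:**
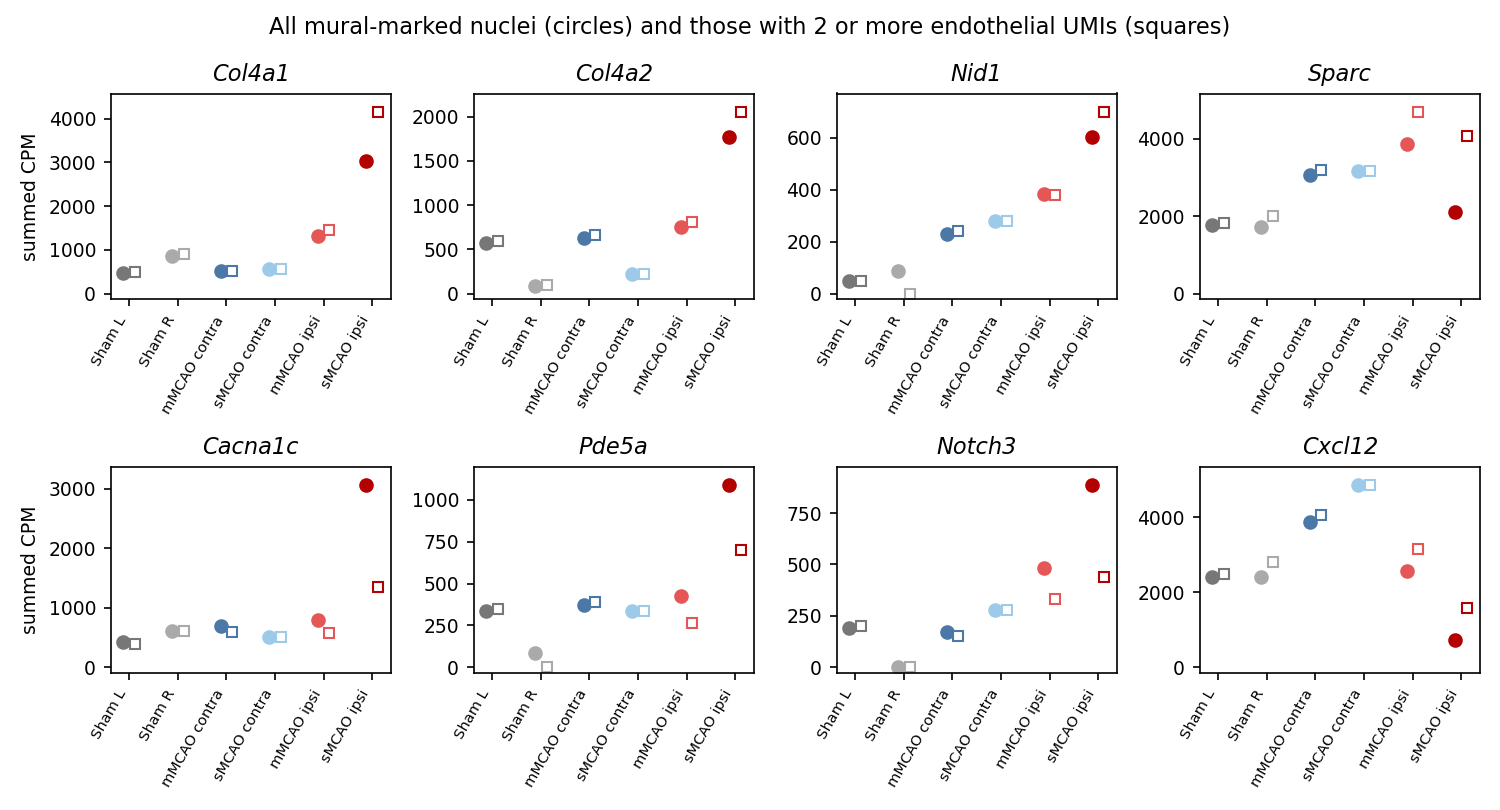
Summed CPM of 8 genes by library, in all mural-marked nuclei (circles) and in those with 2 or more endothelial UMIs (squares). Col4a1 is highest in both ipsilateral libraries for circles and squares, whereas Cacna1c and Notch3 drop between circle and square in MCAO ipsi, and Cxcl12 is lowest in sMCAO ipsi.

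**Figure D4:**
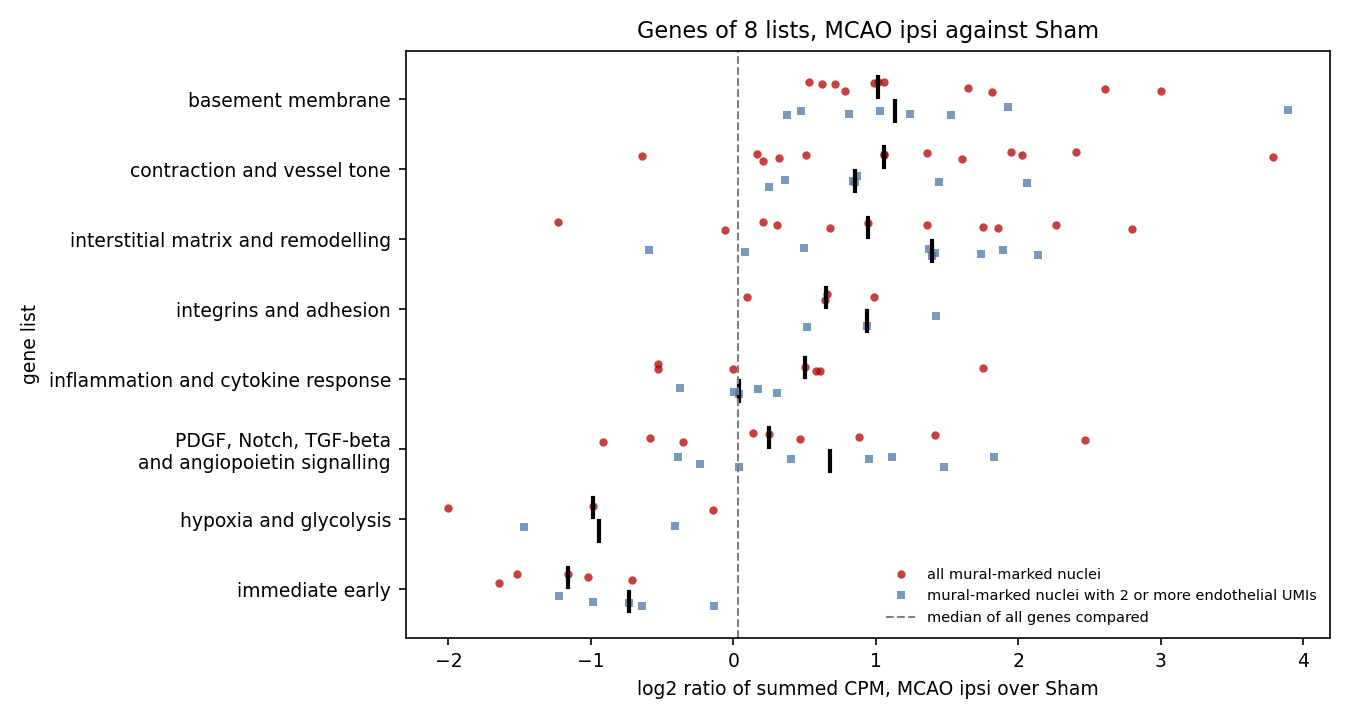
Log2 ratio of summed CPM, MCAO ipsi over Sham, for the genes compared in each of 8 lists, in all mural-marked nuclei (red circles) and in those with 2 or more endothelial UMIs (blue squares), with list medians (black ticks) and the median of all genes compared in all mural-marked nuclei (dashed line, 0.04). All 11 basement membrane genes compared in all mural-marked nuclei are right of 0, and genes at 0 UMIs in Sham are drawn at their bound against 3 UMIs.

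Compared with the opposite hemisphere of the same rats, MCAO ipsi had 5 of 11 basement membrane genes called higher, with 8 of the 11 ratios above 1, and 4 of 7 immediate early genes called lower. Of all 1941 genes, 132 were called higher (6.8%) and 148 lower (7.62%), or 153 and 123 with size factors from the median of ratios. The calls numbered 94 without sMCAO ipsi, 164 without mMCAO contra, and 130 among members with 2 or more endothelial UMIs, 50 higher (3.63%) and 80 lower (5.8%). The ratio of Col4a1 was 4.08 (2.74 to 6.28) and no single library removed its call, but the log2 ratio went from 2.03 to 1.32 without sMCAO ipsi. Col4a2, Lama2, Lamc1 and Nid1 were called as well, and among members with 2 or more endothelial UMIs Col4a1 and Col4a2 were, 2 of 10 basement membrane genes. Without sMCAO ipsi the log2 ratios of Col4a2, Lama2, Lamc1 and Nid1 over all members, at 1.34, 0.94, 0.69 and 1.0, became 0.61, 0.58, 0.30 and 0.64 with no call. Without mMCAO contra, Lama2 (0.47), Lamc1 (0.94) and Nid1 (0.82) lost theirs too, and Lamc1 did without sMCAO contra (0.58). Pde3a stood at 373 and 112 CPM opposite the lesion and at 558 and 2738 on its side, a ratio of 5.71 (3.36 to 10.4), and the log2 ratio of 2.51 went to 0.97 without sMCAO ipsi and to 3.86 without mMCAO contra. It was also called among members with 2 or more endothelial UMIs (3.09, 1.62 to 6.41), but not without the smooth muscle marked nuclei. Col5a2, a fibrillar collagen chain, had 3, 0, 10 and 32 UMIs in these 4 libraries (log2 ratio 2.86, or 1.76 and not called without sMCAO ipsi, and 1.31 and 2.26 without mMCAO contra and sMCAO contra).

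Cxcl12 was lower on the lesion side, and it was higher opposite the lesion than in Sham. It stood at 2393 and 2404 CPM in the Sham libraries, 3878 and 4850.3 opposite the lesion, and 2559.7 and 725 on the lesion side. The ratio of MCAO ipsi to MCAO contra was 0.40 (0.32 to 0.48), with a log2 ratio of -1.34 that was -0.72 without sMCAO ipsi and -2.54 without mMCAO ipsi, and stayed called among members with 2 or more endothelial UMIs, at 0.60 (0.49 to 0.74). All 169 of its UMIs in MCAO ipsi came from those members. Of 7 immediate early genes, 4 were called lower, namely Jun, Jund, Klf4 and Nr4a1, beside 7.62% of all genes, and among members with 2 or more endothelial UMIs 3 of 6 were, beside 5.8%. Against Sham 2 of 5 were called lower, Jund (log2 ratio -1.64) and Klf4 (-1.52), beside 8.59% of all genes. Both calls were lost without sMCAO ipsi (-1.38 and -0.67), mMCAO ipsi (-1.99 and -4.07) and Sham L (-0.42 and -1.86). That of Klf4 was also lost without Sham R (-1.28). Jun was called higher in MCAO contra than in Sham, at 718 and 502 against 335 and 258 CPM (log2 ratio 1.07), and lost this call without Sham L (1.32), Sham R (0.94) or mMCAO contra (0.71). Jun had 25 and 9 UMIs opposite the lesion and 11 and 3 on its side, with a log2 ratio of -2.23 that was -1.61 without sMCAO ipsi and -3.42 without mMCAO ipsi. Of 3 heat shock genes compared, the chaperones Hsp90aa1 and Hspa8 were called lower at log2 ratios of -0.89 and -1.32, and 0 of 3 were called among members with 2 or more endothelial UMIs. Hsp90aa1 was not called without any of the 4 libraries (-0.92 to -0.87), nor Hspa8 without mMCAO contra or either ipsilateral library (-1.36 to -0.77). Klf4 (-2.12) was not called without mMCAO contra (-1.50) and was at -1.27 without sMCAO ipsi and -4.67 without mMCAO ipsi, and Nr4a1 not without any of the 4 libraries (-3.72 to -0.62). Il1r1, the interleukin-1 receptor, had 3, 1, 11 and 17 UMIs (log2 ratio 1.86, not called without sMCAO ipsi at 1.48, mMCAO contra at 2.31 or sMCAO contra at 1.68).

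In MCAO contra against Sham, 3 of 5 neuronal genes outside the rule were called lower. Of all 930 genes, 39 were called higher (4.19%) and 65 lower (6.99%), and 48 calls were left without Sham L. Among members with 2 or more endothelial UMIs, 34 (3.96%) were called higher and 51 (5.94%) lower. Kcnip4 (log2 ratio -1.88) and Csmd1 (-1.51) were lower, as was Nrg3 (-1.67), whose call was lost without Sham L (-0.76). Sparc and Cxcl12 were higher, the latter by a ratio of 1.76 (1.35 to 2.30), and Cxcl12 stayed called among members with 2 or more endothelial UMIs (1.67, 1.28 to 2.19). Cst3, the protease inhibitor cystatin C, stood at 718 and 687 CPM in the Sham libraries and at 1494 and 2788 in the contralateral ones. Nfia, a transcription factor, had 2, 3, 18 and 19 UMIs in the same 4 libraries (log2 ratio 2.19, or 1.45 and not called without Sham L), and with 5 UMIs in Sham it passed the limit of 20 UMIs through MCAO contra. Col4a1 was not called in this comparison, at 479 and 858 CPM against 517 and 558.

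Against the 4 other libraries together, the pooled rule called 110 genes higher (4.59%) and 108 lower (4.51%) of 2394, and 69 (3.82%) and 93 (5.15%) of 1806 among members with 2 or more endothelial UMIs. Without sMCAO ipsi 117 calls were left, and without mMCAO ipsi there were 461. When the UMIs of each library were summed and tested with the quasi-likelihood test of edgeR, adjusted by Benjamini-Hochberg over 645 genes, few differences passed. In MCAO ipsi against Sham, MCAO ipsi against MCAO contra and MCAO contra against Sham, 0 genes were called at an adjusted p under 0.05, while 97, 66 and 39 had an unadjusted p under 0.05. DESeq2 called 0 genes in each, with 131, 80 and 52 at an unadjusted p under 0.05. Against the 4 other libraries together, edgeR called 2 genes (0.31%), Col4a1 and a gene without a symbol, ENSRNOG00000032922. Col4a1 had a log2 fold change of 2.20 (SE 0.455, adjusted p = 0.0306, edgeR), and this call was lost without Sham L, Sham R, sMCAO contra or sMCAO ipsi, where edgeR called 0 genes. DESeq2 called 0 genes here. Among members with 2 or more endothelial UMIs, edgeR called 13 of 414 genes (3.14%) in that comparison and 32 (7.73%) against Sham, and Col4a1 was among them with log2 fold changes of 2.45 (adjusted p = 0.0040) and 2.30 (adjusted p = 0.0140). With the rat pool as a block, which pairs the 2 hemispheres of the same rats, 2 genes (0.31%) were called in MCAO ipsi against MCAO contra, and Col4a1 had a log2 fold change of 2.11 (SE 0.549, adjusted p = 0.0419, edgeR). Some of these libraries hold under 20 nuclei, and the 2 Sham libraries come from the same rats, so the p-values measure only the spread between these libraries.

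For several genes outside the rule the severe and the moderate ipsilateral library stood apart, with 1 library each and no test, and with intervals that cover counting error only. Over all members, sMCAO ipsi stood to mMCAO ipsi at 3.88 for Cacna1c (2.73 to 5.62), 4.91 for Pde3a (3.27 to 7.60) and 2.29 for Col4a1 (1.71 to 3.09). Within members with 0 or 1 endothelial UMI, the ratios were 2.62 for Cacna1c (1.57 to 4.65), 2.98 for Pde3a (1.67 to 5.77), 2.58 for Col4a1 (1.22 to 6.26) and 1.14 for Notch3 (0.56 to 2.49). Within members with 2 or more endothelial UMIs, the ratio for Col4a1 was 2.87 (2.06 to 4.02).

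Transcripts of smooth muscle were found in a part of the members. Of 152 members, 18 had 2 or more UMIs of 9 smooth muscle genes, 14 of them ipsilateral, and 5 had 2 or more UMIs of Acta2, Myh11, Tagln, Cnn1 and Myocd alone. The 3 members with 10 or more UMIs of these 5 genes were all ipsilateral, with a highest value of 19. Myh11, smooth muscle myosin, had 0, 1, 1, 1, 15 and 6 UMIs in the 6 libraries. It was called higher in MCAO ipsi than in Sham, 1 of 2 smooth muscle genes compared, beside 5.2% of all genes. With 1 UMI in Sham, however, it passed the limit of 20 UMIs through MCAO ipsi.

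The 20 cell cycle genes summed to 30.7 CPM in Sham, 133 in MCAO contra and 699 in MCAO ipsi, from 1, 7 and 71 UMIs. In MCAO ipsi the sum was 346 CPM with moderate and 1067 with severe infarcts. Mki67, a marker of dividing cells, gave 14 of the ipsilateral UMIs and 0 in the 4 other libraries. After thinning to 500 UMIs, 1 of 33 members in Sham (3.03%), 4 of 37 in MCAO contra (10.8%) and 17 of 82 in MCAO ipsi (20.7%) had a UMI of these genes, against 3.03%, 16.2% and 29.3% before thinning. Endothelial-marked nuclei stood at 6.56%, 3.13% and 16.8% after thinning, and neuron-marked nuclei at 2.45%, 2.05% and 3.55%. The ipsilateral shares of the members and of endothelial-marked nuclei had overlapping intervals (12.6 to 31.1 and 12.8 to 21.4). None of these genes reached 20 UMIs in the comparison with Sham, so none was compared.

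Transcripts of other non-neuronal classes were also counted, with levels compared between groups and not between lists. The 11 myeloid genes gave 0 UMIs in Sham, where 3 UMIs would be 92.2 CPM. They gave 216 CPM in MCAO ipsi, 115 with moderate and 322 with severe infarcts, led by Mrc1 with 5 UMIs. The 10 astrocyte genes gave 645 CPM in Sham and 561 in MCAO ipsi, with 808 in mMCAO ipsi and 302 in sMCAO ipsi. The 10 fibroblast genes outside the rule gave 277 CPM in Sham and 521.5 in MCAO ipsi, led there by Pdgfra with 16 UMIs, of which 14 were in sMCAO ipsi.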

How the data were processed

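The deposited files held raw UMI counts per gene and barcode, which the authors made with Cell Ranger 7.0.0 on mRatBN7.2, intronic reads included. The files were not corrected for free RNA or doublets. All 6 libraries and 30560 genes were read, of which 7162 had no symbol. Members and gene lists were chosen with earlier results of these data known. As 3 libraries had under 20 members, the planned edgeR test became an alternative and the pooled rule (log2 0.6, no overlap, interval excluding 1, 20 UMIs) the main result. That rule was set after the counts were seen, and its interval was added after a test on simulated data. The rule genes were left out of calls. Ratios have exact conditional Poisson 95% intervals. The SE of an edgeR fold change was its size over the root of F. Genes at 0 were set against 3 UMIs over the group. Named genes were the markers, the list members that were called or most abundant, the 20 genes furthest above other nuclei, and in each comparison the called genes whose interval lay furthest from 1, which replaced the smallest p of the plan. Endothelial-marked nuclei had at least 3 UMIs and 0.3% from the 13 endothelial genes and at most 1 UMI of the 4 mural markers. The planned interaction test with them was not made, because the smallest library held 16 such nuclei. Alternatives were other size factors, no filter, stricter marker and neuron limits, nuclei of other classes or smooth muscle left out, each library left out, and the rat pool as a block. R 4.3.3, edgeR 4.0.16, DESeq2 1.42.0, Python 3.11.15, numpy 2.4.6, scipy 1.17.1, pandas 2.3.3 and matplotlib 3.10.9 were used. UMIs of PCR-amplified libraries and pooled tissue make these intervals cover counting error only.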

Additional observations from a re-analysis of the deposited data

Results flagged for a closer look

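Only named genes with at least 20 UMIs over MCAO ipsi and Sham in both mural-marked and endothelial-marked nuclei were searched. Many of these had been named for a call in mural-marked nuclei. In 3 of them, both ipsilateral libraries stood on one side of both Sham libraries in mural-marked nuclei and on the opposite side in endothelial-marked nuclei. The difference between the classes was not tested. For Cacna1c the log2 ratio of MCAO ipsi to Sham was 1.95 in mural-marked nuclei and -3.09 in endothelial-marked ones, where 418 and 152 CPM in Sham stood against 126 and 17.6 in mMCAO ipsi and sMCAO ipsi. For Nid1 the values were 3.00 and -0.81, and for Jund -1.64 and 1.37. The endothelial-marked values rest on few UMIs, with 15 in Sham and 15 in MCAO ipsi for Cacna1c, 7 and 34 for Nid1, and 1 and 22 for Jund, which had 0 in Sham R.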

How the results depend on the processing

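Of the 4 pooled comparisons in the order MCAO ipsi against Sham, MCAO ipsi against MCAO contra, MCAO contra against Sham and MCAO ipsi against the 4 other libraries, the main calls numbered 228, 280, 104 and 218, and without the filter on low counts 360, 493, 215 and 371. Leaving out each library in turn gave 112 to 271, 94 to 379, 48 to 78 and 117 to 461. Among members with 2 or more endothelial UMIs, MCAO ipsi against MCAO contra gave 130, and with at most 1 neuronal UMI MCAO contra against Sham gave 62. Size factors from the median of ratios gave 46 higher and 49 lower in MCAO contra against Sham and 154 and 85 against the 4 other libraries, beside main splits of 39 and 65, and 110 and 108. Of the 53 calls of named genes in MCAO ipsi against Sham, 26 remained without sMCAO ipsi, 30 without Sham L, 41 without mMCAO ipsi and 44 without Sham R. Adamts4 against Sham reversed to -0.70 among members with 2 or more endothelial UMIs and to -0.13 without Sham L, and Ednrb to -0.13 without Sham L (highest values without a library 2.26 and 2.2), since both are set against the floor of 3 UMIs. The share of ipsilateral members with 0 or 1 endothelial UMI was 48.8%, and 23.8 to 75% with either ipsilateral library left out. The ratio of shares to Sham was 4.89 with at least 5 marker UMIs and 1.12 of nuclei with few neuronal UMIs, and to MCAO contra 1.48 of the latter, with ranges of 2.62 to 3.83 and 2.23 to 3.18 when a library was left out.

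edgeR per library called 0, 0, 0 and 2 genes. Without a filter it called 2, 5, 0 and 35, and among members with 2 or more endothelial UMIs 32, 2, 0 and 13. DESeq2 called 0 in the last. Leaving out each library gave 0 to 162, 0 to 192, 0 to 19 (12 without mMCAO ipsi) and 0 to 218 (9 without mMCAO contra), and apart from the range up to 19 the highest came without mMCAO ipsi, where sMCAO ipsi alone carried the group and its spread was taken from the others. With the rat pool as replicate block, MCAO ipsi against MCAO contra gave 2. The block could not be fitted for Sham, whose 2 libraries are 1 pool of rats, and the interaction test was not run. The cause of these changes was not tested. A total of 11649 UMIs in Sham R limits what can be seen for genes under about 20 UMIs.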
